A study of Arabidopsis thaliana with 2 samples.

Results

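The mitochondrially encoded genes of Arabidopsis thaliana were taken as every gene whose identifier starts with ATMG in a table of ribosome-bound RNA. There were 122 of them among the 31280 genes of the table, and each had a single row. The RNA came from immature flower bud clusters of the accession Col-0, with no other genotype or treatment. The series holds 2 libraries, 1 of single-stranded RNA and 1 of ribosome-bound RNA, and the values below come from the second. Monosomes and polysomes were pooled after a sucrose gradient run with chloramphenicol, which halts organelle ribosomes, and with cycloheximide, which halts cytosolic ribosomes. After removal of ribosomal RNA the rest was fragmented, so a value is the amount of a transcript in the ribosome fraction and not a footprint of translation. With 1 library no difference has a replicate check and no p-value is given. Intervals of levels are exact 95% Poisson intervals on the weighted clones. Those of ratios between members and of the share of mapped clones are exact 95% binomial intervals. All intervals cover counting error only. Fewer mitochondria, fewer cells and less RNA per mitochondrion cannot be told apart in such a bulk sample.

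A plant mitochondrion keeps a small genome that encodes core subunits of the respiratory chain, a few proteins of its own ribosome, and proteins that attach haem to c-type cytochromes. The nucleus encodes the other subunits, which are imported. Many plant mitochondrial transcripts are changed by C-to-U RNA editing, and some genes are transcribed in separate pieces that are joined by trans-splicing. The rest of the genome holds short open reading frames, many of them of no known function. The genome has also taken up stretches of chloroplast DNA, and in Col-0 a large insertion of mitochondrial DNA lies in nuclear chromosome 2.

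The identifiers were joined to the RefSeq annotation of TAIR10.1 by its notes, by spliced length and by the position of the chromosome 2 copies. This gave a gene or reading frame name to 78 members and a place to 77. There were 20 members of the respiratory chain, of which 11 belonged to complex I, 1 to complex III, 3 to complex IV and 5 to the ATP synthase. A further 7 encoded ribosomal proteins, 5 cytochrome c maturation proteins and 77 open reading frames. The last 13 fitted no class or more than 1 and are called unnamed. Where a gene is transcribed in pieces, each piece has its own identifier, and the pieces are numbered here from the 5′ end. Each piece counts as a member, so nad2 and nad5 each stand in complex I with several members.

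The members listed highest were not respiratory genes but 2 short open reading frames. Of these, 1 is largely chloroplast-like in sequence, and the place of the other was not settled. ATMG00280, annotated as orf110a (chrMT:164947-165278, plus strand, 1 exon), is described in the annotation as the catalytic domain of the Rubisco large subunit. Over 294 nt without a gap it aligned to rbcL, the chloroplast gene for the large subunit of the CO2-fixing enzyme Rubisco, with 5 mismatches (98.3% identity). Both stretches are shown because they decide how far clones of the reading frame can be told from those of rbcL, and capitals mark the mismatches. The first is chrMT:164985-165278 and the second is chrPltd:55500-55793 of the chloroplast genome, both from RefSeq TAIR10.1 on the plus strand.
orf110a: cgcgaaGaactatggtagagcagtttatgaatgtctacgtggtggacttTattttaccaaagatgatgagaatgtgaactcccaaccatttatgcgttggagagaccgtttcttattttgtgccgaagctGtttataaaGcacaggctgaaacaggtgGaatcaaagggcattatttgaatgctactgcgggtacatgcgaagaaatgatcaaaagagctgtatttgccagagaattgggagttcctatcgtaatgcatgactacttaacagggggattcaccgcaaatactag
chloroplast rbcL: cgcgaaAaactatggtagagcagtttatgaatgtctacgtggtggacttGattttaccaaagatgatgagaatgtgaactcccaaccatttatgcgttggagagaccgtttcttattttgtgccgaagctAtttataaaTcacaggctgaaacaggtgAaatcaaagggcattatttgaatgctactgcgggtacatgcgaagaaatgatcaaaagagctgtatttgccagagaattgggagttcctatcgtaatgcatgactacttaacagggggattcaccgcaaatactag

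ATMG00280 was listed at 376 RPKM (355 to 398), that is, weighted clones per kb of listed length, scaled to the library total. It rested on 3993 clones with a mean weight of 0.301 each. The chloroplast rbcL gene stood at 1678 RPKM with 32716 clones and a mean weight of 0.707, and AT2G07732, the copy of the reading frame on chromosome 2, stood at 361 RPKM with 7108 clones. Of the 20-nt words of orf110a, 63.9% also occurred in the chloroplast genome and 93.6% on chromosome 2. The amount of RNA that came from the mitochondrial copy cannot be told apart from these values.

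ATMG01060, the member of highest level, was listed at 428.5 RPKM (406 to 452.1) with 3995 clones of mean weight 0.333. Its listed length of 324 nt is shared by several annotated reading frames and it could not be placed. Only orf107g, which contains a tRNA gene, trnD(GTC), on the same strand, shared 20-nt words with the annotated nuclear copy of ATMG01060, 10 of 73. That tRNA gene aligned to chloroplast trnD over 74 nt with 1 mismatch (98.6% identity). Whether ATMG01060 is orf107g was not settled, and the source of its clones cannot be told from these values. ATMG00280 and ATMG01060 together held 83.7% of the weighted clones of all open reading frames and 37.3% of those of all 122 members.

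The respiratory-chain genes were the most abundant class by its median, followed by the ribosomal protein genes, the cytochrome c maturation genes and the open reading frames. Their median was 10.4 RPKM, with members from 0 to 59.3. For the ribosomal protein genes the median was 3.65 RPKM (0.993 to 6.17), which is 0.353 of the respiratory median. The maturation genes had a median of 0.776 RPKM (0.42 to 2.56). The median open reading frame stood at 0.00529 RPKM and rested on a single clone of low weight. With each reading frame below the limit of 3 counts raised to it, the median was 0.885 RPKM. The respiratory median was 11.7 times that value (9.27 to 14.6, with the reading frame median held fixed). This ratio is not a lower bound, since the exact interval at 0 counts reaches above the limit of 3 counts. Among the 20 respiratory members, 17 lay above the highest ribosomal protein member and 19 above the highest maturation member.

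**Figure D1:**
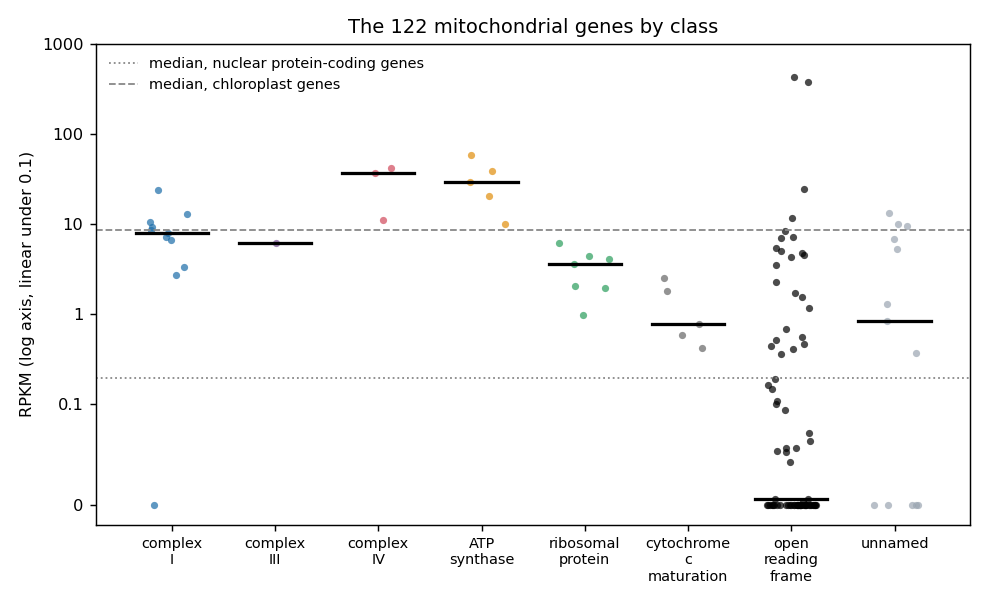
RPKM of each of the 122 members (points) by class, with the class median as a black line, on an axis that is logarithmic above 0.1 and linear below. The respiratory classes have medians from 6.18 to 36.7 RPKM, whereas 37 of the 77 open reading frames lie at 0. The dashed line is the median of the 88 chloroplast genes and the dotted line that of the nuclear protein-coding genes.

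Levels were also read against the median nuclear protein-coding gene, which stood at 0.196 RPKM over 26621 genes. A level at least 10-fold over it (1.96 RPKM) was reached by 5.96% of all genes in the table. It was reached by 45 of the 122 members (36.9%). These were 19 of 20 respiratory members, 6 of 7 ribosomal protein genes, 1 of 5 maturation genes, 14 of 77 open reading frames and 5 of 13 unnamed members. A listing at 0 held for 14.4% of all genes and for 43 members (35.2%), 37 of them open reading frames. The 88 chloroplast genes had a median of 8.67 RPKM, near that of the respiratory class on weighted clones. The median of the mean weights was 0.776 for the chloroplast genes and 0.446 for the respiratory class. With every clone counted in full the respiratory median was 24.1 RPKM, and the chloroplast median was not computed on that scale. The members took 0.0708% of the mapped clones (0.0691 to 0.0725, exact binomial interval) and the chloroplast genes 0.538%.

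Among the ATP synthase genes, atp1 was highest per kb of listed length. It encodes the alpha subunit of the catalytic head and lies at chrMT:67098-68621 on the minus strand. It was listed at 59.3 RPKM (55.4 to 63.4), and no other respiratory gene had an interval that overlapped it on that scale. The membrane subunits followed in the order atp9, the subunit of the rotating ring, at 38.75 RPKM (33.4 to 44.7), then atp8 at 29.5 (24.7 to 34.9), then atp4 at 20.7 (17.1 to 24.9). The lowest was atp6, which encodes the subunit beside the ring that conducts protons, at 9.99 RPKM (8.33 to 11.9). With every clone counted in full atp4 was instead the lowest, at 23.45 RPKM against 41.35 for atp6. The level of atp1 was 5.93 times that of atp6 (4.93 to 7.23), and 3.22 times with every clone counted in full, since the mean weights of the pair were 0.446 and 0.242. ATMG01170, which the annotation used here does not name, had 127 weighted clones against 126 for atp6, and a level of 9.55 RPKM (7.96 to 11.4). The RefSeq genome has a pair of atp6 genes of unlike length, and which of them either identifier stands for was not settled. The listed length of atp9 was 504 nt against a coding sequence of 225 nt, and that of cox3 was 1447 nt against 798 nt, so the order changes per kb of coding sequence. On that scale atp9 stood at 86.8 RPKM, above atp1, whose level was 0.683 of it.

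All 3 complex IV genes encode the core of cytochrome c oxidase. The copper and haem subunit cox1 (chrMT:114762-116345, minus strand) was listed at 41.8 RPKM (38.6 to 45.2) and cox2, which accepts electrons from cytochrome c, at 36.7 (32.5 to 41.3). Their ratio of 1.14 (0.988 to 1.32) included 1. The third subunit, cox3, was listed at 11.2 RPKM (9.55 to 13.2), and cox1 stood 3.72 times above it (3.11 to 4.45). That ratio rests on the scale. It was 2.05 per kb of coding sequence, 1.99 with every clone counted in full and 1.1 with both, at mean weights of 0.85 for cox1 and 0.456 for cox3. The apocytochrome b gene cob, the sole complex III member, was listed at 6.18 RPKM (4.82 to 7.81), below every ATP synthase and complex IV gene.

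**Figure D2:**
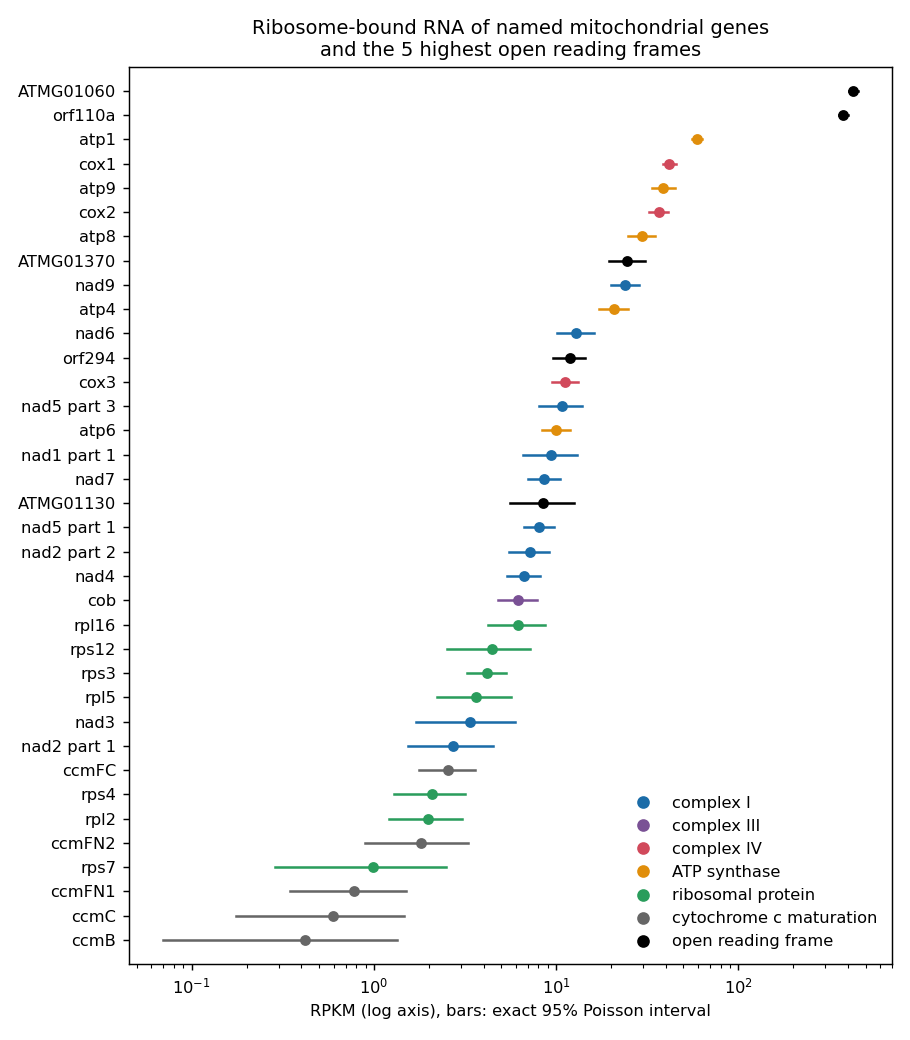
RPKM (points, log axis) with exact 95% Poisson intervals (bars) of the respiratory, ribosomal protein and cytochrome c maturation genes listed above 0, and of the 5 highest open reading frames. The reading frames at 428.5 and 376 RPKM stand apart from atp1 at 59.3 RPKM, and the maturation genes are at the lower end, down to 0.42 RPKM for ccmB.

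Complex I genes were lower than most ATP synthase and complex IV genes, and 5 of those 8 lay above the highest complex I gene. That gene was nad9, a subunit of the arm that extends into the matrix, at 24.0 RPKM (20.1 to 28.5). The membrane subunit nad6 followed at 12.9 RPKM (10.2 to 16.1). With every clone counted in full nad6 was the highest, at 33.6 RPKM against 31.4 for nad9, and 6 of the 8 lay above it; the mean weights were 0.383 and 0.766. The other matrix-arm gene, nad7, was listed at 8.62 RPKM (7.0 to 10.5) and the membrane subunit nad4 at 6.64 (5.37 to 8.12). The lowest whole gene was nad3, a small membrane subunit, at 3.35 RPKM (1.70 to 5.91).

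Genes that are assembled by trans-splicing allowed pieces of 1 mRNA to be compared. The long pieces of nad5 were listed at 8.07 RPKM (6.64 to 9.71) for part 1 and 10.7 (8.08 to 13.9) for part 3, a ratio of 1.33 (0.95 to 1.85). Their mean weights were 0.293 and 0.926, and with every clone counted in full the ratio was 0.42, so the order of these pieces depends on the weighting. The middle piece, part 2, is an exon of 22 nt and was listed at 0, which with a limit of 3 counts allows up to 14.2 RPKM and is uninformative at this depth. The pieces of nad2 differed beyond counting error, provided that part 1 is rightly identified. It was joined by a near length, 578 nt listed against 545 nt annotated. Part 1 was listed at 2.73 RPKM (1.53 to 4.49) and part 2 at 7.14 (5.49 to 9.14), a ratio of 2.62 (1.48 to 4.98), at mean weights of 0.419 and 0.46, and 2.39 with every clone counted in full. Per kb of coding sequence the nad2 ratio was 2.47. Part 1 of nad1 was listed at 9.41 RPKM (6.55 to 13.1). ATMG00516 and ATMG01400 have the length of part 3 of nad1 and of an open reading frame, and were listed at 13.2 RPKM (9.46 to 17.98) and at 0. ATMG01120, nearest in length to part 2, was listed at 10.1 (6.65 to 14.8).

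The ribosomal protein genes ran from rpl16 at 6.17 RPKM (4.22 to 8.71) to rps7 at 0.993 (0.285 to 2.48), and their ratio was 6.21 (2.35 to 25.8), or 3.72 with every clone counted in full. Both are proteins of the mitochondrial ribosome, of its large and small subunit respectively. Between them lay rps12 at 4.42 RPKM (2.53 to 7.18), rps3 at 4.16 (3.22 to 5.29), rpl5 at 3.65 (2.22 to 5.67), rps4 at 2.08 (1.30 to 3.16) and rpl2 at 1.97 (1.20 to 3.05). In this order each gene's interval overlapped that of the next. Over all 32 respiratory, ribosomal and maturation members, 29 of the neighbours in rank overlapped and 2 did not. These orders rest on the weighted clones. With every clone counted in full rps12 was the highest ribosomal protein gene at 12.7 RPKM, above rpl16 at 8.70 and rpl5 at 8.61. The lowest was still rps7, at 2.34 RPKM.

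Members that lie next to each other on 1 strand could be set side by side. The coding sequence of rpl16 begins inside the end of rps3, and their levels had a ratio of 1.48 (0.938 to 2.28). The genes nad3 and rps12, 45 nt apart, had a ratio of 1.32 (0.564 to 2.94) despite belonging to different classes. Part 1 of nad2 lies 763 nt after rps4, and their levels had a ratio of 1.31 (0.62 to 2.59). In contrast nad9 begins 840 nt after rpl16 and stood 3.89 times above it (2.63 to 5.91). Pairs at a like distance thus differed in their ratios.

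The cytochrome c maturation genes encode parts of the pathway that carries haem to apocytochrome c and attaches it. The haem lyase genes were ccmFC at 2.56 RPKM (1.76 to 3.59), ccmFN2 at 1.82 (0.898 to 3.29) and ccmFN1 at 0.776 (0.346 to 1.50). The haem delivery genes were ccmC at 0.596 RPKM (0.176 to 1.47) and ccmB at 0.42 (0.0699 to 1.35). The level of ccmFC was 6.09 times that of ccmB (1.93 to 64.9), where ccmB rested on 4 clones. Of the 13 unnamed members, ATMG00520 was nearest in length to the maturase gene matR and was listed at 0.842 RPKM (0.484 to 1.36), and ATMG00570, nearest to the protein translocase gene mttB, was listed at 1.32 RPKM (0.655 to 2.37). Neither identity was settled. Of the 4 members of 303 nt, a length shared by the complex I gene nad4L and a pair of reading frames, ATMG00650 was listed at 6.81 RPKM, ATMG00770 at 5.29, and ATMG00740 and ATMG01240 at 0.

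Subunits of the same complexes encoded in the nucleus had lower levels in the ribosome fraction. The list held 43 nuclear genes of the 4 complexes, and the annotation describes 42 of them as such subunits. Their median was 2.25 RPKM against 10.4 RPKM for the 20 mitochondrial members, 4.6 times lower, or 8.24 times when every clone counts in full. By complex the mitochondrial median was 3.52 times the nuclear one for complex I (8.07 against 2.29 RPKM), 3.96 times for complex III, 18.5 times for complex IV (36.7 against 1.98 RPKM) and 6.52 times for the ATP synthase (29.5 against 4.53 RPKM). All 5 mitochondrial ATP synthase genes lay above the highest nuclear one, MGP1. The interval of the lowest of them, atp6 (8.33 to 11.9), overlapped that of MGP1 (6.32 to 9.82). All 3 mitochondrial complex IV genes lay above the highest nuclear gene of that complex. Levels are per gene, so nuclear copies that encode the same subunit are separate entries and were not added up. The ATP synthase beta-subunit genes, for example, were AT5G08690 at 4.25 RPKM, AT5G08680 at 2.78 and AT5G08670 at 2.58. Of the 42 nuclear genes, 25 lay at least 10-fold over the median nuclear gene, a level reached by 6.39% of all nuclear protein-coding genes.

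**Figure D3:**
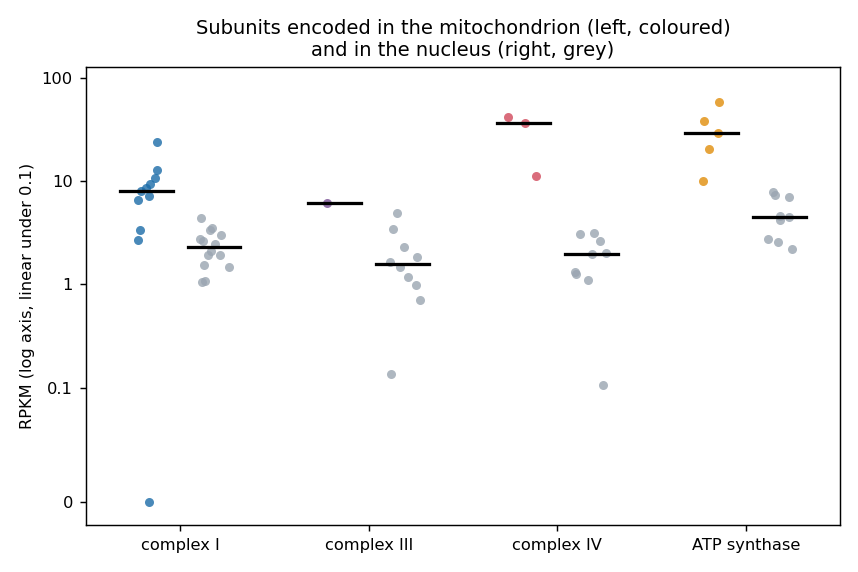
RPKM of respiratory-chain genes by complex, with mitochondrial genes on the left of each pair (coloured) and nuclear genes on the right (grey). Black lines are medians, and the axis is logarithmic above 0.1. The mitochondrial median is above the nuclear one in each of the 4 complexes, by 3.52 to 18.5 times.

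The highest and lowest nuclear partner of each complex were as follows. In complex I, FRO1, an iron-sulphur subunit, was listed at 4.41 RPKM (3.0 to 6.26) and GAMMA CA1, a carbonic anhydrase-like subunit found in plant complex I, at 1.06 (0.58 to 1.79). In complex III, AT3G10860, annotated as subunit 8, was listed at 4.91 RPKM (3.17 to 7.27) and AT5G25450, a copy of the 14-kDa subunit gene, at 0.135 (0.00746 to 0.62). In complex IV, AT3G15640, with an annotated subunit Vb domain, was listed at 3.15 RPKM (2.16 to 4.44) and AT4G28060, a subunit VIb gene, at 0.105 (0.000104 to 0.986). In the ATP synthase, MGP1, a subunit needed for pollen development, was listed at 7.93 RPKM (6.32 to 9.82) and AT5G47030, a subunit delta gene, at 2.21 (1.36 to 3.38). Complex II has no mitochondrial gene here, and its 7 nuclear genes had a median of 1.13 RPKM with SDH1-1, the flavoprotein, highest at 2.78 (2.14 to 3.57) and SDH2-3, an iron-sulphur isoform, listed at 0. Cytochrome c itself was listed at 8.19 RPKM (6.21 to 10.6) for CYTC-1 and at 1.98 (1.04 to 3.43) for CYTC-2. The alternative oxidase gene AOX1A, whose enzyme bypasses complexes III and IV, was listed at 0.861 RPKM (0.449 to 1.50). The organelle RNA polymerase genes MGP3 and AT5G15700 stood at 0.326 RPKM (0.165 to 0.578) and 0.233 RPKM (0.103 to 0.452).

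The classes also differed in how densely their coding sequences are annotated with C-to-U editing sites. The windows shown are the 120 nt of an exon with the most annotated sites in ccmB, nad4 and atp1, and a window of cox1, in which no site is annotated. Capitals mark the edited C. All are on the minus strand of the mitochondrial genome of RefSeq TAIR10.1, at chrMT:18238-18357 for ccmB with 19 sites, chrMT:215102-215221 for nad4 with 8, chrMT:67098-67217 for atp1 with 3 and chrMT:114762-114881 for cox1 with 0.
ccmB: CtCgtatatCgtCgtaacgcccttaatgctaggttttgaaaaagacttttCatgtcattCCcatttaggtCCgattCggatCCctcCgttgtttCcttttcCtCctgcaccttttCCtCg
nad4: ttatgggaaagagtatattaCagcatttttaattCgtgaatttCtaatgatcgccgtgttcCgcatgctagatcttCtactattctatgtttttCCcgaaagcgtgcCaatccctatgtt
atp1: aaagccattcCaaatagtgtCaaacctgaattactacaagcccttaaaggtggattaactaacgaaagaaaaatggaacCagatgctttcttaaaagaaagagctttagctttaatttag
cox1: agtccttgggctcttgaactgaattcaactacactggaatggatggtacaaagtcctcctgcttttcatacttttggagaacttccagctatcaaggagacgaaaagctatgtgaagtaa

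Per kb of coding sequence, the maturation genes had a median of 24.4 annotated sites, with 82.1 in ccmB and 44.1 in ccmC, the genes of lowest level. Complex I genes had a median of 24.6 sites per kb, the ATP synthase genes 13.7 and the complex IV genes 11.3. For the ribosomal protein genes it was 18.5. Among the 18 placed respiratory members over 30 nt, level was lower at higher site density, with a Spearman rho of -0.626. These members all share the library and are not independent replicates. Among them are pieces of the same mRNA, for nad2 and for nad5. Among the 7 ribosomal protein genes rho was 0.607, since rps7 and rpl2, with 2.24 and 3.81 sites per kb, were the least abundant. Over all 30 placed respiratory, ribosomal protein and maturation members rho was -0.412. A clone of an edited transcript differs from the genome at each edited site, and no source used here states how many mismatches the alignment allowed. The part of editing in these levels was not tested.

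**Figure D4:**
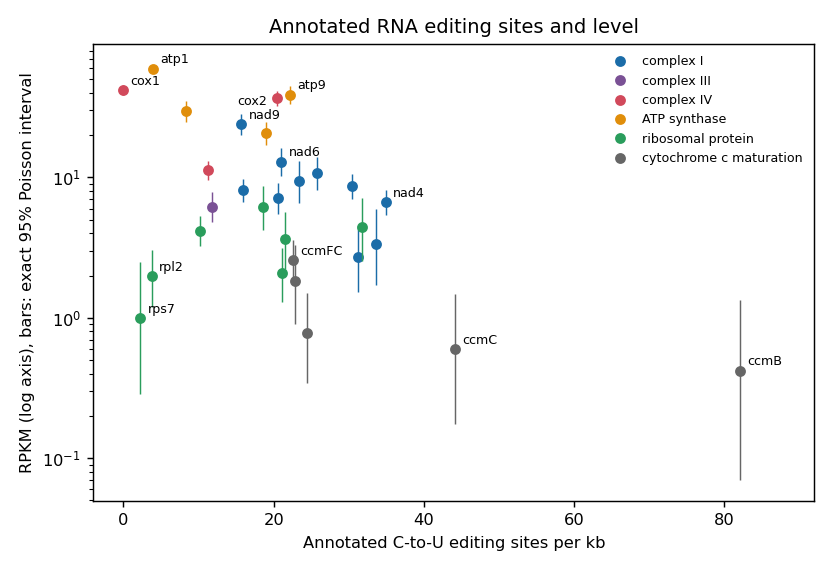
RPKM (log axis, bars exact 95% Poisson intervals) against annotated C-to-U sites per kb of coding sequence for 30 respiratory, ribosomal protein and maturation members, coloured by class. The gene ccmB lies at 82.1 sites per kb and 0.42 RPKM and cox1 at 0 sites and 41.8 RPKM, while rps7 and rpl2 have few sites and low levels.

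The mean weight per clone was lower for members with copies elsewhere. Among the 41 placed members with at least 10 clones, 31 had 90% or more of their 20-nt words at another place in the genome, and their mean weight per clone ran from 0.213 to 0.509 with a median of 0.419. The 6 members with under 20% of such words, among them cox1, atp4, nad9 and rps3, had mean weights from 0.765 to 0.926. Identical values were listed for several members and their nuclear copies. The gene atp8 and its chromosome 2 copy AT2G07707 both had 352 clones and 29.5 RPKM, and 8 of 12 pairs of the same listed length and above 0 had identical clones and RPKM. The identical pairs of orf109, orf159, ATMG00620 and ATMG01140 rest on a single clone each. The pairs that differed were rps12 (46 clones against 44 for the copy), orf262 (41 against 39), orf291 (173 against 174) and ccmC with AT2G07681 (15 against 26). With every clone counted in full, atp1 stood at 133 RPKM, atp9 at 127, atp8 at 77.1, cox2 at 53.1 and cox1 at 49.2, which places cox1 below atp9, atp8 and cox2.

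**Figure D5:**
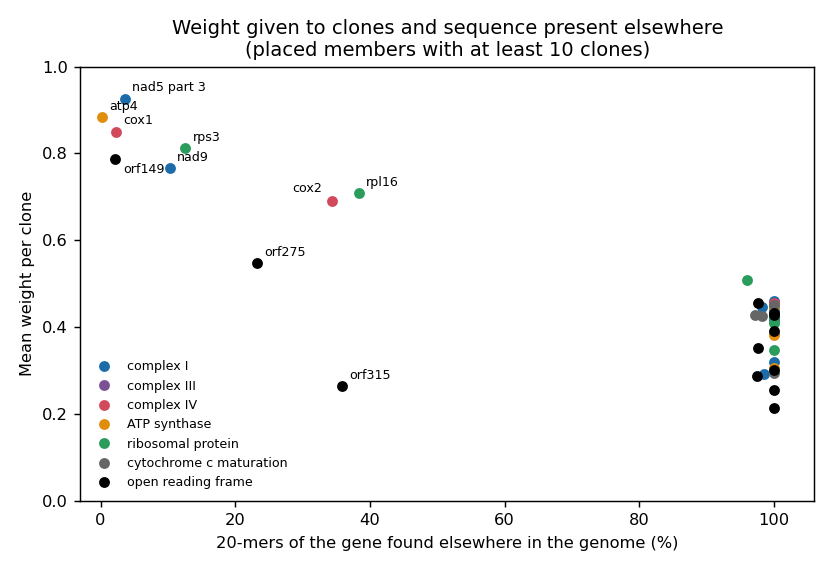
Mean weight per clone against the share of a gene's 20-nt words found elsewhere in the genome, for the 41 placed members with at least 10 clones, coloured by class. The 6 genes with a share under 20% have weights of 0.765 or more, and the 31 genes with a share of 90% or more have weights of 0.509 or less.

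Apart from ATMG00280 and ATMG01060, few open reading frames were well represented. Of 77, 59 stood at or under the limit of 3 counts, and 16 of the 40 listed above 0 rested on less than 1 weighted clone. The lowest above 0 were orf167 (ATMG00140) at 0.00269 RPKM and ATMG00170 and ATMG00620, both at 0.00529 RPKM, each from a single clone. For those at 0, lengths of 306 to 756 nt put the limit of 3 counts at 0.4145 to 1.02 RPKM. Next in level after the top pair were ATMG01370, which was not placed, at 24.6 RPKM (19.5 to 30.6), orf294 (ATMG01200) at 11.9 RPKM (9.65 to 14.4), and ATMG01130, also not placed, at 8.51 RPKM (5.57 to 12.5). ATMG01370 rested on 79.1 weighted clones with a mean weight of 0.988, and its interval overlapped that of nad9. Above the median ribosomal protein gene lay 12 of the 77.

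Placed open reading frames were grouped by their distance to a named gene. Of the 46 with a place, 14 lay within 1000 nt of a named gene on the same strand or overlapped it, and 32 lay farther away. Of the 14, 7 stood at least 10-fold over the median nuclear gene, 1 was listed at 0 and the median was 3.01 RPKM. Of the 32, 1 stood that high, 19 were listed at 0 and the median was 0 RPKM. The reading frame orf294 begins upstream of atp1 and ends 146 nt before it, orf291 lies 197 nt upstream of part 1 of nad1 and stood at 7.25 RPKM (5.54 to 9.31), and orf114, at 7.01 RPKM (4.45 to 10.5), overlaps nad3. Other reading frames beside atp8 and nad3 were orf141 at 5.08 RPKM (3.13 to 7.79) and orf118 at 4.29 (2.38 to 7.12). The reading frames orf118 and orf114 overlap each other on the same strand, and both are among the 7. The exception among the distant ones was orf315 at 5.51 RPKM (4.09 to 7.26), which lies 2778 nt from part 3 of nad5. Of the 20-nt words, 25.8% in orf291 and 35.8% in orf315 also occur at another place of the mitochondrial genome. The mean weights of these reading frames were 0.351 and 0.264. The distance of 1000 nt was chosen after the values were seen. At 500 nt, 5 of the 11 near and 3 of the 35 distant ones stood at least 10-fold over the median nuclear gene, with medians of 1.73 and 0 RPKM. One of those 7 within 1000 nt, and of those 3 beyond 500 nt, is orf110a, whose clones cannot be assigned to the mitochondrial copy, and without it the median within 1000 nt was 1.73 RPKM. Whether clones of these reading frames belong to transcripts of the neighbouring gene or of another place with the same sequence was not tested.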

How the data were processed

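Per the labels, 1 single-stranded RNA library and 1 ribosome-bound RNA library of Col-0 flower buds were made. The submitters' processing notes name Bowtie 0.12.7, cutadapt 0.9.5 and the build TAIR9. The authors deposited for each transcript a count of clones, an estimated count of clones weighted by the authors (how the weights were set is not given), RPM and RPKM. From the values, RPM divides the weighted clones by the library total of 9574408 mapped clones and the deposited RPKM is RPM per kb of the listed length. The single-stranded library was deposited as intervals with a score, per the file, and only their number per chromosome was used.

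No gene names accompany the identifiers, so members were joined to RefSeq TAIR10.1 by notes, spliced length and the place of chromosome 2 copies. Where length was used it was exact, except for part 1 of nad1, part 1 of nad2 and some reading frames. Those reading frames were matched by the codon number in their name. Part 1 of nad2 was joined by a length within 6.5%, with an in-frame start codon upstream. For part 1 of nad1 a note gave the gene, and the piece was chosen by a near length, 387 nt listed against 385 nt annotated. Sequences and coordinates are from that assembly, whose mitochondrial genome has 367808 nt, and editing sites are as annotated there. Shared sequence was counted as exact 20-nt words on either strand. The nuclear subunit list held 55 genes, and 54 were kept after the annotation was checked. Exact 95% Poisson intervals (scipy 1.17.1) and ratios of members with exact binomial intervals, on weighted clones rounded to whole numbers, cover counting error only. Intervals of class-median ratios carry the counting error of the numerator alone. Interval code was checked on simulated data. Pandas 2.3.3, Biopython 1.88 and matplotlib 3.10.9 were used. The genes named are all respiratory, ribosomal protein and maturation members, the 5 highest and 3 lowest open reading frames above 0 and the extreme nuclear partner of each complex. The members, lists and rules were chosen with earlier results of these data known. Reading frames beyond these were named for their place, after their values were seen.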

Additional observations from a re-analysis of the deposited data

Results flagged for a closer look

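The single-stranded library holds data on the mitochondrial genome that no comparison above uses. Of its 33187 deposited hotspots, 259 (0.78%) lie on the mitochondrial chromosome. Their positions refer to the TAIR9 mitochondrial sequence and were not carried to the genes described here, which are placed on RefSeq TAIR10.1.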

How the results depend on the processing

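Averaging over all rows of a gene could change nothing, since each member has 1 row. Of the other 32 alternative values of the class medians, their ratios and the share of mapped clones, 9 left the counting interval of the reported value. The interval of the open reading frame median reaches 0.928 RPKM, so it does not separate the reported median from 0.188 RPKM with every clone counted in full, 0.495 without members at 0 or 0.439 with a mean weight of at least 0.5. With every clone counted in full, the respiratory median was 24.1 RPKM. Its ratio to the open reading frames, raised to the 3-count limit, was 25.8. The ribosomal over respiratory ratio was then 0.213 and the share of mapped clones 0.178%. With a mean weight of at least 0.5 required, 5 respiratory and 3 ribosomal protein genes were left. The respiratory median was then 24.0 RPKM, its ratio to the reading frames 24.9, and the ribosomal over respiratory ratio 0.173. With at least 10 weighted clones required, 16 open reading frames were left with a median of 5.29 RPKM, above the ribosomal median of 3.91, and the respiratory ratio was 2.02; this requirement removes low reading frames by its construction. The order of respiratory, ribosomal and open reading frame medians held under the 6 other settings that alter a median. Leaving out the 22-nt member, counting ATMG01120 with the respiratory chain, and the scales for single pairs were chosen after the data were seen. Among pairs, nad9 over nad6 turned from 1.86 (1.4 to 2.52) to 0.932 with every clone counted in full, and atp1 over atp9 from 1.53 (1.3 to 1.8) to 0.683 per kb of coding sequence and 0.468 with both. No paired analysis was possible because each assay has a single library. Depth limits the reading frames and maturation genes most, since most of them rest on under 10 weighted clones.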
